A study of Mus musculus with 12 samples.

Results

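The 10 genes described here encode the core of the microRNA pathway: the Argonautes Ago1, Ago2, Ago3 and Ago4, the TNRC6 scaffold proteins Tnrc6a, Tnrc6b and Tnrc6c, and the processing factors Dicer1, Drosha and Dgcr8. They were chosen by name and not by a measured value, although earlier results of these data were known. Every peak that overlapped one of them on the same strand by at least 1 nucleotide was taken, with no threshold. This gave 1433 of 713343 listed peaks over 4 libraries: 232 of 92451 in the WT library of set 1, 311 of 119859 in the KO library of set 1, 437 of 244814 in the WT library of set 2 and 453 of 256219 in the KO library of set 2. The libraries are chimeric eCLIP libraries of tibialis anterior muscle, a fast hindlimb muscle, made by ultraviolet cross-linking and an AGO2 antibody, so that a pile of reads marks RNA bound by or near AGO2. WT mice are labelled wildtype on strain C57BL/6, and KO mice are labelled miR-486-/- on strain FVB N/J. All were 6 months of age, and the study's methods give males. The methods also give a KO line backcrossed to C57BL/6J and a shared strain background for all analyses, which differs from the KO label. By the labels, genotype and strain cannot be told apart. The KO line was made by CRISPR deletion in the mir-486 hairpin, which lies within the Ank1 gene. There were 2 libraries per genotype, named here set 1 and set 2 after their titles, and the sources do not say whether the sets came from different mice. The methods give 3 muscles per genotype, done in duplicate, so the sets may be duplicates and an SD over them may be technical.

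In the cytoplasm a mature microRNA is held by an Argonaute protein and guides it to mRNAs that pair with the microRNA seed, bases 2 to 8. TNRC6 proteins bind Argonaute and recruit the deadenylases that shorten the poly(A) tail. Upstream, Drosha and Dgcr8 form the nuclear Microprocessor, which cuts the hairpin out of the primary transcript, and Dicer1 trims it to the mature duplex. The mRNAs of these proteins are themselves subject to microRNA control, so that a peak of AGO2 on such a message lies on RNA that codes for the machinery.

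The deposited lists give for each peak a log2 fold of reads over the matched input and a −log10 p. A peak was called enriched at a log2 fold of at least 3 with a −log10 p of at least 3. Over all genes this share was 3.57% in WT set 1, 0.848% in KO set 1, 1.42% in WT set 2 and 1.23% in KO set 2, so the KO library of set 1 stood below the others. The libraries of set 1 also differed at muscle transcripts: of the peaks in 10 muscle fibre marker genes, 74 of 453 were enriched in WT set 1, 1 of 537 in KO set 1, and 0 of 862 and 0 of 825 in set 2. Of 5 red blood cell markers, 3 had an enriched peak in WT set 1 and 0 in each of the other libraries. No macrophage, endothelial, Schwann cell or adipocyte marker had an enriched peak in any library, although all of these lists had listed peaks. Of 3 fibroblast markers, Col1a1 had 3, 2, 1 and 4 enriched peaks. The part of these differences in the counts below was not tested. The enriched counts come from folds over input and do not measure cell number or RNA per cell. In whole muscle, fewer cells of a type and less RNA per cell cannot be told apart. With 2 libraries per genotype, a two-sided exact permutation test cannot give a p below 0.333, so differences between genotypes are given as values.

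Enriched peaks lay in the TNRC6 genes, in Dicer1 and, in set 2, in Ago1. Of the listed peaks of the 10 genes, 22 of 232 were enriched in WT set 1 against 3.57% of all peaks, 3 of 311 in KO set 1 against 0.848%, 30 of 437 in WT set 2 against 1.42% and 39 of 453 in KO set 2 against 1.23%. The mean was 26.0 ± 5.66 (SD, n = 2) enriched peaks in WT and 21.0 ± 25.5 (SD, n = 2) in KO. Tnrc6a, Tnrc6b and Tnrc6c together held 17, 3, 23 and 28 of these in WT set 1, KO set 1, WT set 2 and KO set 2, or 13.8%, 1.56%, 11.1% and 12.3% of their listed peaks. Dicer1 held 5, 0, 5 and 9. Ago1 held 0, 0, 2 and 2. Ago2, Ago3, Ago4, Drosha and Dgcr8 had 0 enriched peaks in all 4 libraries.

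**Figure D1:**
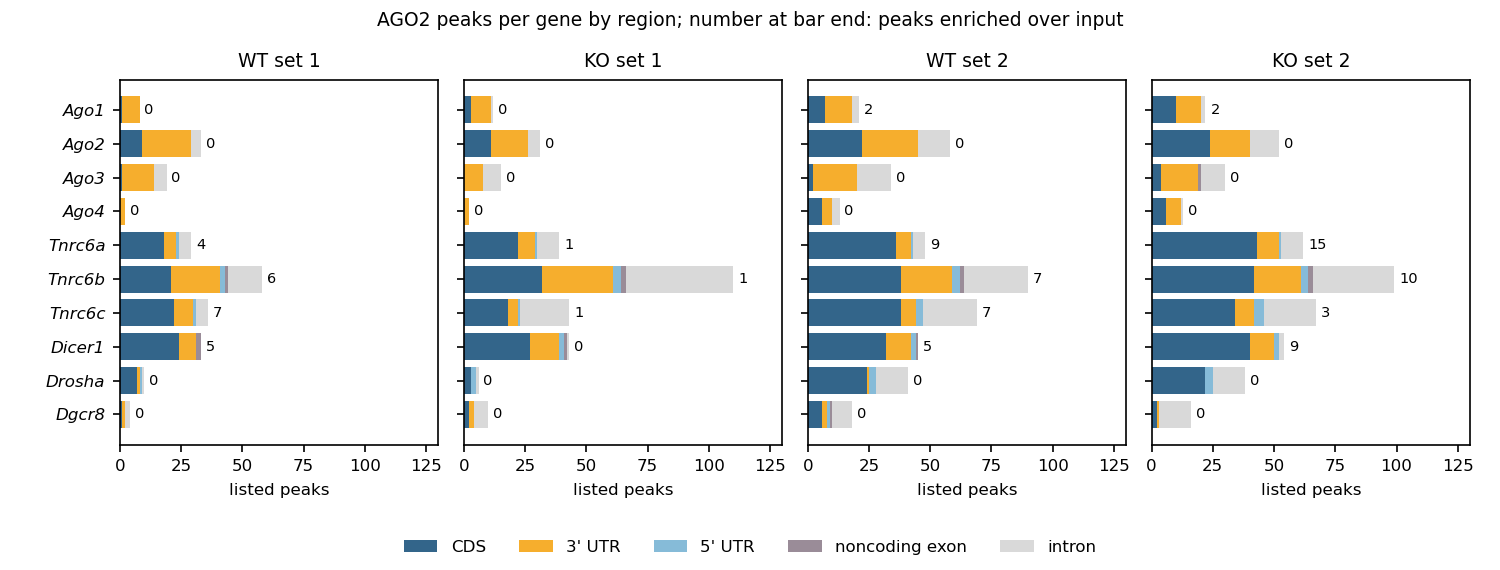
Number of listed AGO2 peaks (horizontal axis) in each of the 10 genes, 1 panel per library, with bars stacked by the region at the peak midpoint and the number of enriched peaks printed at the bar end. Tnrc6b had the most listed peaks in each library, from 58 in WT set 1 to 110 in KO set 1, and the enriched peaks lay in the TNRC6 genes, Dicer1 and Ago1.

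By region, all 94 enriched peaks were in exons. In WT set 1, 16 were coding and 6 in a 3′ UTR, in KO set 1 all 3 were in a 3′ UTR, in WT set 2 the counts were 19 and 11, and in KO set 2 they were 25 and 14. No intronic peak of these genes was enriched in any library, where 1.38%, 0.551%, 0.905% and 0.63% of all intronic peaks were. Coding peaks were enriched in 16 of 104, 0 of 118, 19 of 211 and 25 of 227 cases in the 4 libraries, against 3.17%, 0.263%, 1.04% and 0.95% of all coding peaks. For 3′ UTR peaks the shares were 7.14%, 3.45%, 10.8% and 14.9%, against 5.9%, 1.65%, 3.54% and 3.53% over all genes. The median log2 fold of all listed peaks of the 10 genes was 0.87, 0.80, 1.06 and 1.04, beside 0.68, 0.38, 0.47 and 0.45 over every listed peak. At a log2 fold of at least 1, 30, 11, 88 and 94 peaks of the 10 genes passed, or 12.9%, 3.54%, 20.1% and 20.8%, against 7.14%, 1.99%, 5.37% and 4.72% of all peaks.

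**Figure D2:**
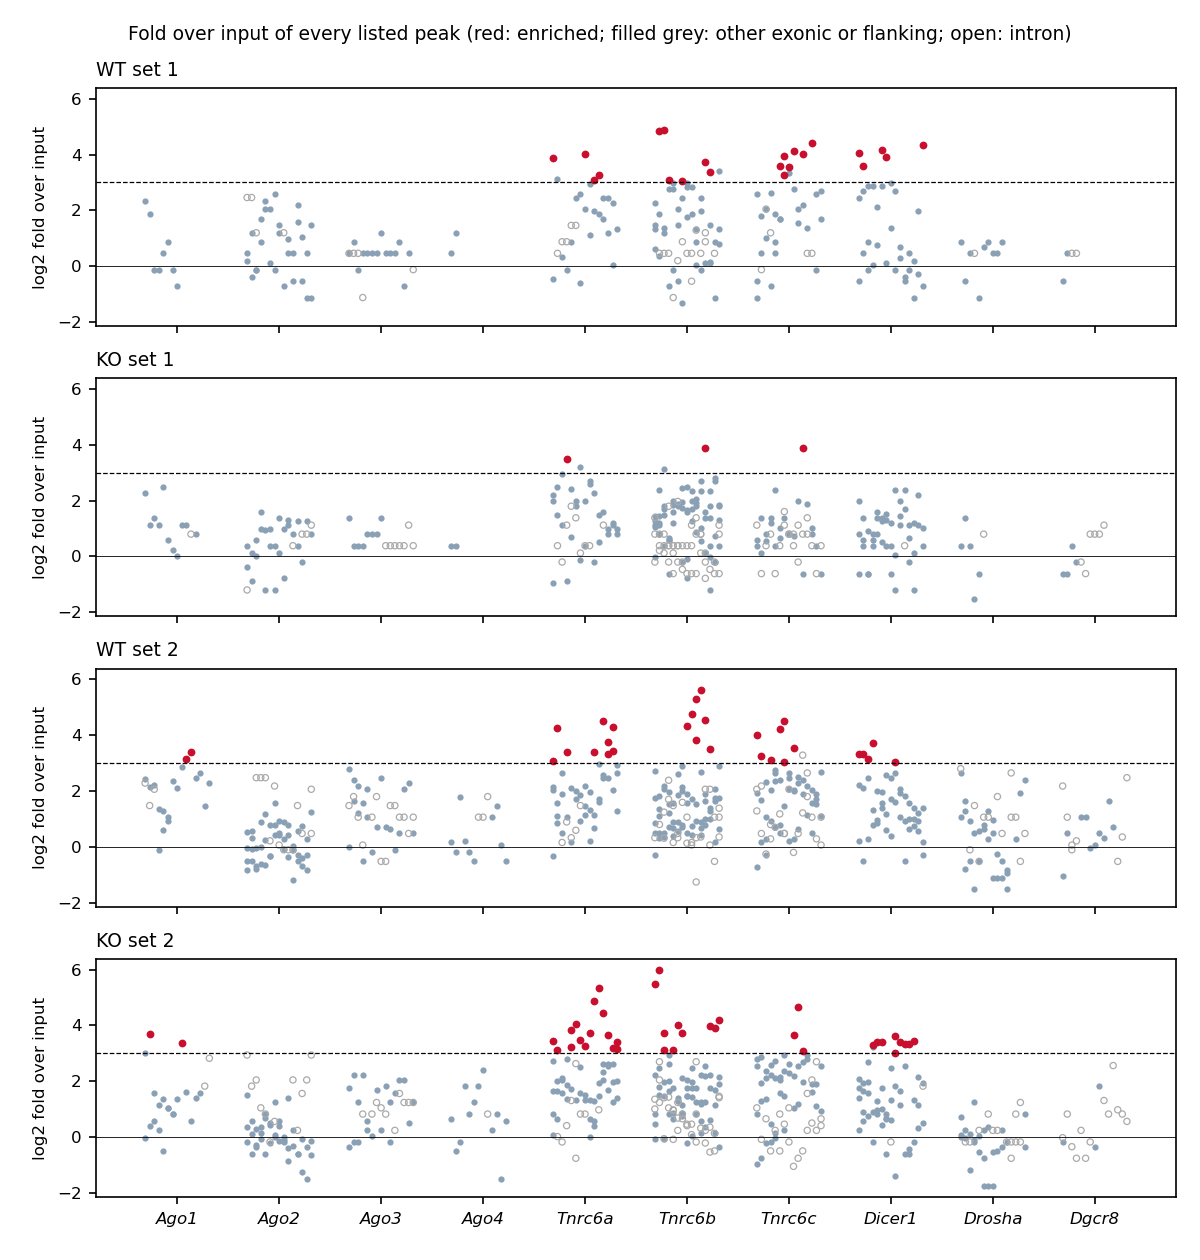
Log2 fold over input (vertical axis) of every listed peak of the 10 genes, 1 panel per library, with enriched peaks in red, other exonic peaks in filled grey and intronic peaks as open circles. The dashed line marks a log2 fold of 3. The highest points are those of Tnrc6b, at 4.87 in WT set 1, 5.61 in WT set 2 and 5.99 in KO set 2.

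Joined where they touched or overlapped, the 94 enriched peaks formed 34 sites: 11 in Tnrc6a, 10 in Tnrc6c, 6 in Tnrc6b, 5 in Dicer1 and 2 in Ago1. Of these, 18 were coding, 15 lay in a 3′ UTR and 1 ran over a stop codon. A listed peak covered 25 of the 34 sites in all 4 libraries. Enrichment was called in a single library at 17 sites, in 2 libraries at 12, in 3 at 4 and in all 4 at 1. In the WT libraries of both sets 9 sites were enriched, and in the KO libraries of both sets 1.

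The site with the highest folds among these genes was in coding exon 8 of Tnrc6b, on GRCm38 chr15:80879403-80880154. Its highest log2 fold among enriched peaks was 4.87 in WT set 1, 5.61 in WT set 2 and 5.99 in KO set 2. In KO set 1 the highest of its 6 listed peaks was at 2.48 with a −log10 p of 5.08, below the threshold on fold. In set 2 the peak at chr15:80879772-80879878 of the KO library had a −log10 p of 79.2, and that at chr15:80879729-80879880 of the WT library 64.9. The site held 2 enriched peaks in WT set 1, 6 in WT set 2 and 7 in KO set 2, spread over 752 nucleotides. TNRC6B, like its paralogs, is a GW182-family scaffold that carries the Argonaute-binding motifs.

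Tnrc6b also had 4 enriched sites in its 3′ UTR of 11609 nucleotides. The first, at chr15:80929570-80929861, began 94 nucleotides after the stop codon and had folds of 3.84 in WT set 2 and 4.01 in KO set 2. It reached 2.83 in WT set 1 and had no listed peak in KO set 1. The next, at chr15:80931292-80931498, was enriched in both libraries of set 1, at 3.72 in WT and 3.87 in KO, and stood just below threshold in set 2, at 2.91 and 2.56. The sites at chr15:80932081-80932221 and chr15:80936709-80936836 were enriched in WT set 1 alone, at 3.38 and 3.08. In the other 3 libraries these last sites had folds between 1.46 and 2.14.

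Tnrc6a had the 1 site that was enriched in all 4 libraries. It ran from 122 nucleotides before the end of the stop codon to 315 after it, on chr7:123192829-123193266, with highest folds of 3.09 in WT set 1, 3.50 in KO set 1, 4.51 in WT set 2 and 5.33 in KO set 2. The corresponding −log10 p values were 7.43, 5.76, 22.7 and 36.1. Further sites of the 3′ UTR followed closely. That at chr7:123193283-123193487 had folds of 3.27 in WT set 1 and 3.67 in KO set 2, and that at chr7:123193508-123193722 had 4.24 in WT set 2 and 3.39 in KO set 2. Of 12 seed matches to the searched microRNA families in the 3′ UTR of this mRNA, 11 were within 25 nucleotides of a peak enriched in at least 1 library. By library it was 7 in WT set 1, 2 in KO set 1, 6 in WT set 2 and 11 in KO set 2. The miR-130 and miR-19 words among them overlap. The share over all genes was not counted, so these counts have no background. In coding sequence, chr7:123184155-123184292 was enriched in 3 libraries, at 3.87 in WT set 1, 3.42 in WT set 2 and 3.21 in KO set 2, with 2.26 in KO set 1.

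Most enriched peaks of Tnrc6c were coding and came from WT libraries. In WT set 1 all 7 of its enriched peaks were coding, and in WT set 2 the counts were 5 coding and 2 in the 3′ UTR. KO set 2 had 3 coding and KO set 1 had 1, in the 3′ UTR. The coding site at chr11:117755325-117755454 had a fold of 4.14 in WT set 1, 4.49 in WT set 2, 2.72 in KO set 2 and 0.65 in KO set 1. The coding site at chr11:117759619-117759763 had 4.41 in WT set 1, 3.24 in WT set 2, 2.81 in KO set 2 and 0.73 in KO set 1. At both sites the WT libraries were above the KO libraries when each was set against its own input. The direct comparison of the same reads, given further on, showed the WT excess in set 1 and not in set 2. Conversely, the coding site at chr11:117722390-117722935 was enriched in KO set 2 alone, at 4.67. A peak there in WT set 1 reached a fold of 3.33 but a −log10 p of 2.55.

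**Figure D3:**
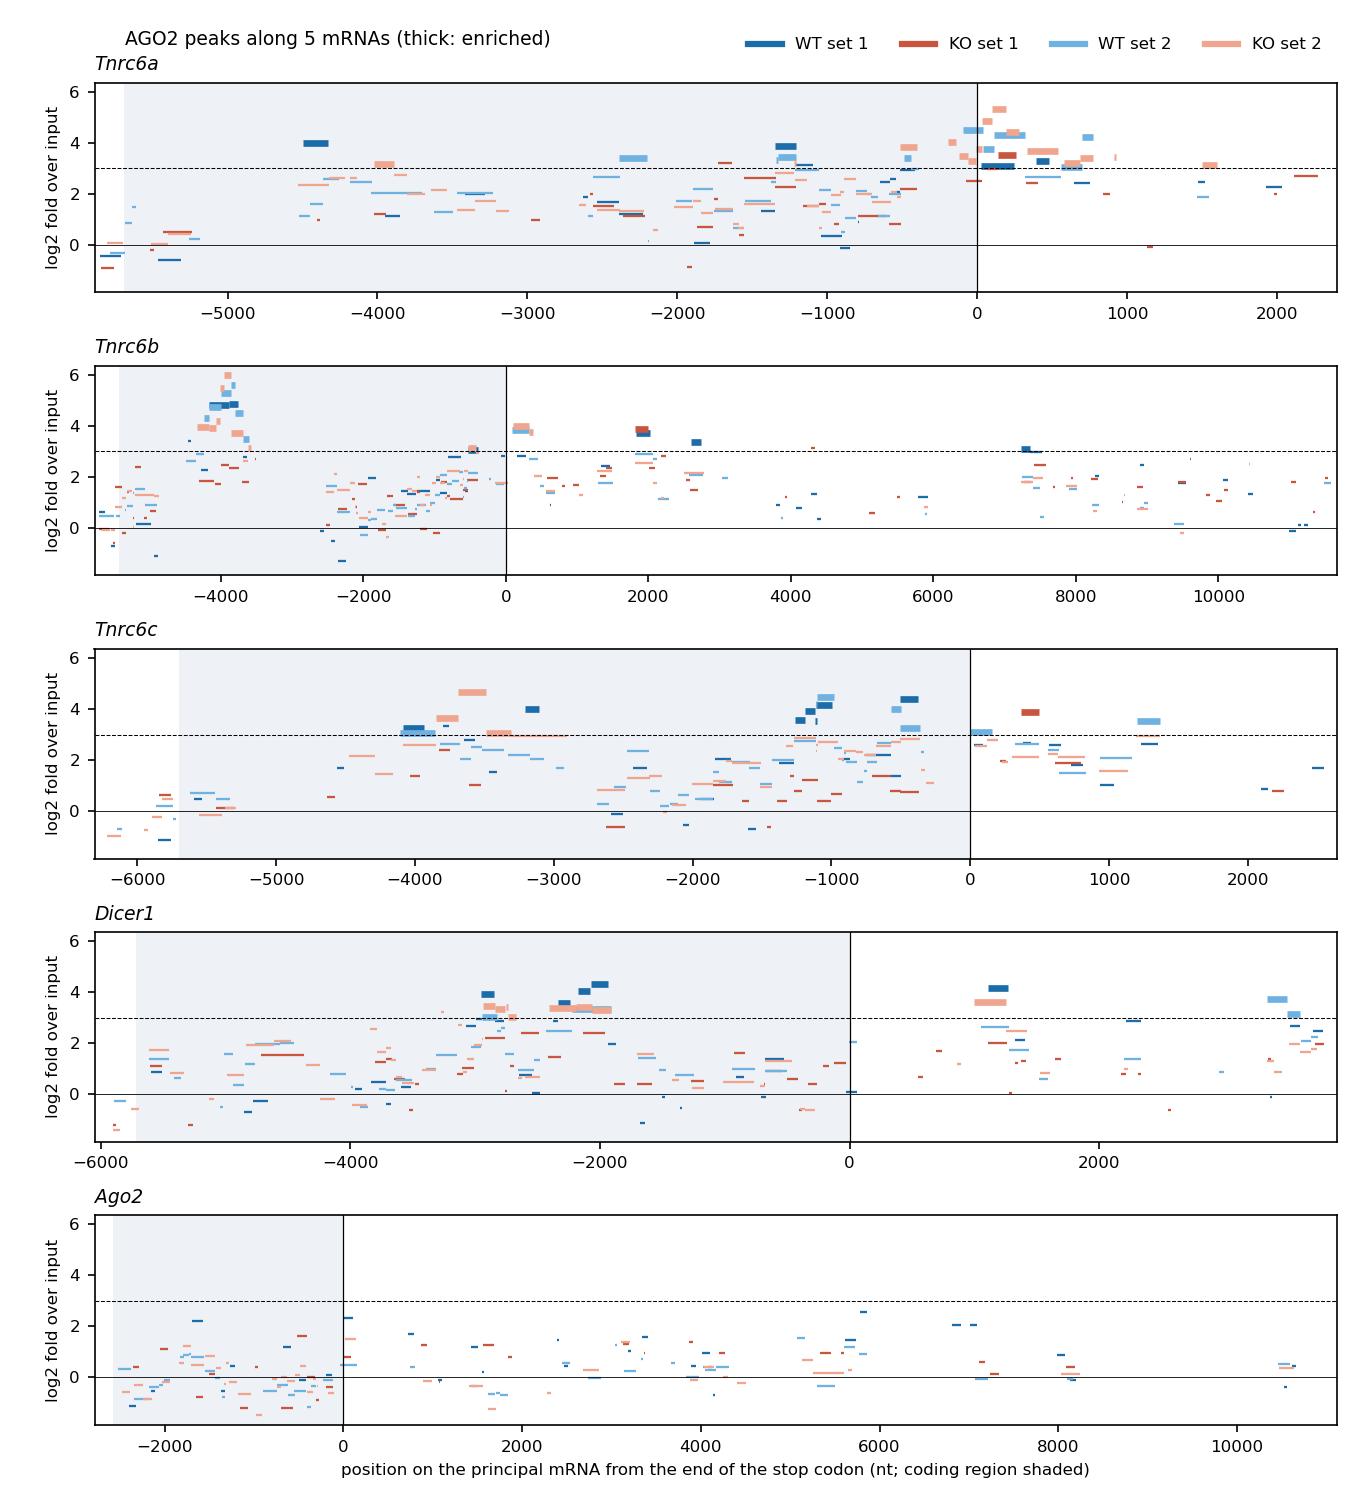
Peaks along the principal mRNAs of Tnrc6a, Tnrc6b, Tnrc6c, Dicer1 and Ago2. The horizontal axis is the distance in nucleotides from the end of the stop codon with the coding region shaded, the vertical axis is the log2 fold over input, each line is 1 listed peak coloured by library and thick lines are enriched peaks. Tnrc6b shows the coding cluster that reached 5.99, Tnrc6a the cluster over the stop codon, and Ago2 no peak above a fold of 3.

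Some seed matches near TNRC6 peaks were of the same families in all 3 paralogs. Matches were searched as the 7-base word complementary to bases 2 to 8 of 23 microRNA families, on the mRNA strand, within 25 nucleotides of a peak. Several families had matches in all 3 TNRC6 mRNAs. Among them were miR-30, with 4, 3 and 2 in Tnrc6a, Tnrc6b and Tnrc6c, and miR-125, with 3 in each. In each paralog a miR-30 match lay within 25 nucleotides of a peak enriched in at least 1 library. The mature sequences of 3 other such families are shown with the seed in capitals, as RefSeq gives them for GRCm38.p6.
mmu-miR-26a-5p: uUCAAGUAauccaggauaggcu
mmu-miR-23a-3p: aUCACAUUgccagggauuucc
mmu-miR-206-3p: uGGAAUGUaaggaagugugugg
miR-206 has the seed of miR-1, and both belong to the microRNAs of skeletal muscle.

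Each TNRC6 mRNA had a miR-26 match (TACTTGA) followed closely by a miR-23 match (AATGTGA) in its 3′ UTR. From the start of one match to the start of the next there were 27 nucleotides in Tnrc6a, 32 in Tnrc6b and 27 in Tnrc6c. The genomic windows of 23 bases are shown because they carry this pair, with the seed match in capitals and each window read 5′ to 3′ on the plus strand of GRCm38, which is the mRNA strand of all 3 genes.
Tnrc6a miR-26 window, chr7:123193086-123193108: acatatcagtttgaaTACTTGAa
Tnrc6b miR-26 window, chr15:80929699-80929721: atatcactcttgaaaTACTTGAa
Tnrc6c miR-26 window, chr11:117761418-117761440: tatcaaacatgcaaaTACTTGAa
Tnrc6a miR-23 window, chr7:123193113-123193135: gcaggccaatattatAATGTGAa
Tnrc6b miR-23 window, chr15:80929731-80929753: ccaacctagaaagacAATGTGAa
Tnrc6c miR-23 window, chr11:117761445-117761467: gcaggccaataccgaAATGTGAa
All 6 matches are followed by an A, the base opposite position 1 of the microRNA. The 7 bases of the match are the same by the search. Of the 15 bases before the miR-26 match, 8 were identical between Tnrc6a and Tnrc6b, 4 between Tnrc6a and Tnrc6c and 5 between Tnrc6b and Tnrc6c. Before the miR-23 match the counts were 6, 11 and 5 in the same order.

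The pair lay 150 nucleotides past the stop codon in Tnrc6a, 238 in Tnrc6b and 582 in Tnrc6c, counted to the first base of the miR-26 match. In Tnrc6a it was within 25 nucleotides of an enriched peak in all 4 libraries, at folds of 3.09 in WT set 1, 3.50 in KO set 1, 4.29 in WT set 2 and 5.33 in KO set 2. In Tnrc6b the folds were 2.83 in WT set 1, 3.84 in WT set 2 and 4.01 in KO set 2, with no listed peak in KO set 1. In Tnrc6c the miR-26 match had 2.57 in WT set 1, 2.38 in WT set 2 and 2.24 in KO set 2, none of them past the threshold. In KO set 1 a peak there reached the miR-23 match alone, at 1.87. The pair was noticed after the matches had been listed. Over the joined 3′ UTR exons of all 21130 protein-coding genes that have one, 21 genes (0.0994%) held a miR-26 match with a miR-23 match starting within 50 nucleotides after it. The 3 TNRC6 genes were among these and the other 7 of the 10 genes were not. The pair was picked in these 3 genes, which are paralogs, so the share over all genes is a description and not a test. Of the enriched 3′ UTR peaks of the 10 genes, 1 of 6, 1 of 3, 2 of 11 and 2 of 14 held a miR-26 match in WT set 1, KO set 1, WT set 2 and KO set 2, beside 4.48%, 4.17%, 5.79% and 4.95% over all genes.

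In the coding sequence, each TNRC6 mRNA had 1 match to miR-206 (ACATTCC), at position −461 in Tnrc6a, −476 in Tnrc6b and −449 in Tnrc6c, counted in nucleotides from the end of the stop codon. These windows are shown because they lie at near-equal distances from the stop codon in the 3 paralogs.
Tnrc6a miR-206 window, chr7:123192095-123192117: catggcccactgattACATTCCa
Tnrc6b miR-206 window, chr15:80927636-80927658: catggcccactgctgACATTCCa
Tnrc6c miR-206 window, chr11:117759660-117759682: catggacctctcatcACATTCCa
Of the 15 bases before the match, 13 were identical between Tnrc6a and Tnrc6b, 11 between Tnrc6a and Tnrc6c and 10 between Tnrc6b and Tnrc6c. In Tnrc6a the peak there had folds of 2.93, 2.19, 3.38 and 3.84 in WT set 1, KO set 1, WT set 2 and KO set 2. In Tnrc6b the folds were 3.04, 1.89, 2.15 and 3.13, and in Tnrc6c they were 4.41, 0.73, 3.24 and 2.81. Each of the 3 sites was thus enriched in 2 of the 4 libraries, and KO set 1 was the lowest of the 4 at each. Of the enriched coding peaks of the 10 genes, a miR-206 match was present in 2 of 16 in WT set 1, 2 of 19 in WT set 2 and 2 of 25 in KO set 2, or 12.5%, 10.5% and 8.0%. Over all genes the shares were 8.95%, 12.1% and 12.9%, so in set 2 the shares of the 10 genes were below the background. KO set 1 had no enriched coding peak in the 10 genes.

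In the coding cluster of Tnrc6b, a miR-125 match at chr15:80879929-80879935 lay within 25 nucleotides of enriched peaks in WT set 1, WT set 2 and KO set 2. A miR-133 match at chr15:80879523-80879529 did so in WT set 2 and KO set 2. Each of these is a single 7-base match in a site of 752 nucleotides. The Tnrc6b 3′ UTR site enriched in both libraries of set 1 held a miR-15/16 match followed by A and a miR-101 match. Matches to miR-30 (TGTTTAC) were within 25 nucleotides of 12 of 84 listed 3′ UTR peaks of the 10 genes in WT set 1, 11 of 102 in WT set 2 and 11 of 94 in KO set 2. These are 14.3%, 10.8% and 11.7%, against 4.01%, 3.52% and 3.59% of the 3′ UTR peaks of all genes. In KO set 1 they were within 25 nucleotides of 3 of 87, or 3.45%, against 2.70%.

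Dicer1, the enzyme that cuts precursor hairpins to the mature duplex, had its broadest site in coding exon 21, on chr12:104702612-104703105. Its highest fold was 4.33 in WT set 1, 3.34 in WT set 2, 3.42 in KO set 2 and 2.38 in KO set 1. There were 3 enriched peaks at it in WT set 1, 2 in WT set 2 and 3 in KO set 2, and none in KO set 1. The site held 2 matches to let-7 (CTACCTC) with starts 108 nucleotides apart and a match to miR-103 (ATGCTGC, shared with miR-107), each followed by A. Between the 2 let-7 matches lay a miR-181 match, not followed by A. let-7 and miR-103 are known regulators of Dicer, as background. The mature sequences and the windows are shown since they lie under a Dicer1 site enriched in 3 libraries.
mmu-let-7a-5p: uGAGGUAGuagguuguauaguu
mmu-miR-103-3p: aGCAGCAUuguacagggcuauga
Dicer1 first let-7 window, chr12:104702804-104702826, minus strand: tacctgtacaaccaaCTACCTCa
Dicer1 second let-7 window, chr12:104702696-104702718, minus strand: ggaacgctaacacatCTACCTCa
Dicer1 miR-103 window, chr12:104703050-104703072, minus strand: ctgtagtccctgaacATGCTGCa
At the second let-7 match the folds were 4.33 in WT set 1, 2.38 in KO set 1, 3.34 in WT set 2 and 3.30 in KO set 2. At the miR-103 match they were 3.57, 1.46, 2.47 and 3.39 in the same order, enriched in WT set 1 and KO set 2 alone. The Dicer1 mRNA held 2 further coding let-7 matches, and no enriched peak lay within 25 nucleotides of them. At the one at position −630 from the end of the stop codon the folds were 1.38, 0.91, 0.91 and 1.32 in WT set 1, KO set 1, WT set 2 and KO set 2. A second miR-103 match, followed by A, lay at position 1417 in the 3′ UTR. Its folds were 2.12, 1.30, 1.73 and 2.47 in the same order, and it was enriched in no library. Of the enriched coding peaks of the 10 genes, 2 of 16 in WT set 1, 2 of 19 in WT set 2 and 2 of 25 in KO set 2 held a let-7 match, beside 5.07%, 5.09% and 5.17% over all genes. A miR-181 match was held by 3 of 16, 4 of 19 and 2 of 25 in the same libraries, beside 1.05%, 1.18% and 1.45%. For miR-103 it was 1 of 16, 0 of 19 and 2 of 25, beside 2.17%, 1.08% and 1.86%.

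**Figure D4:**
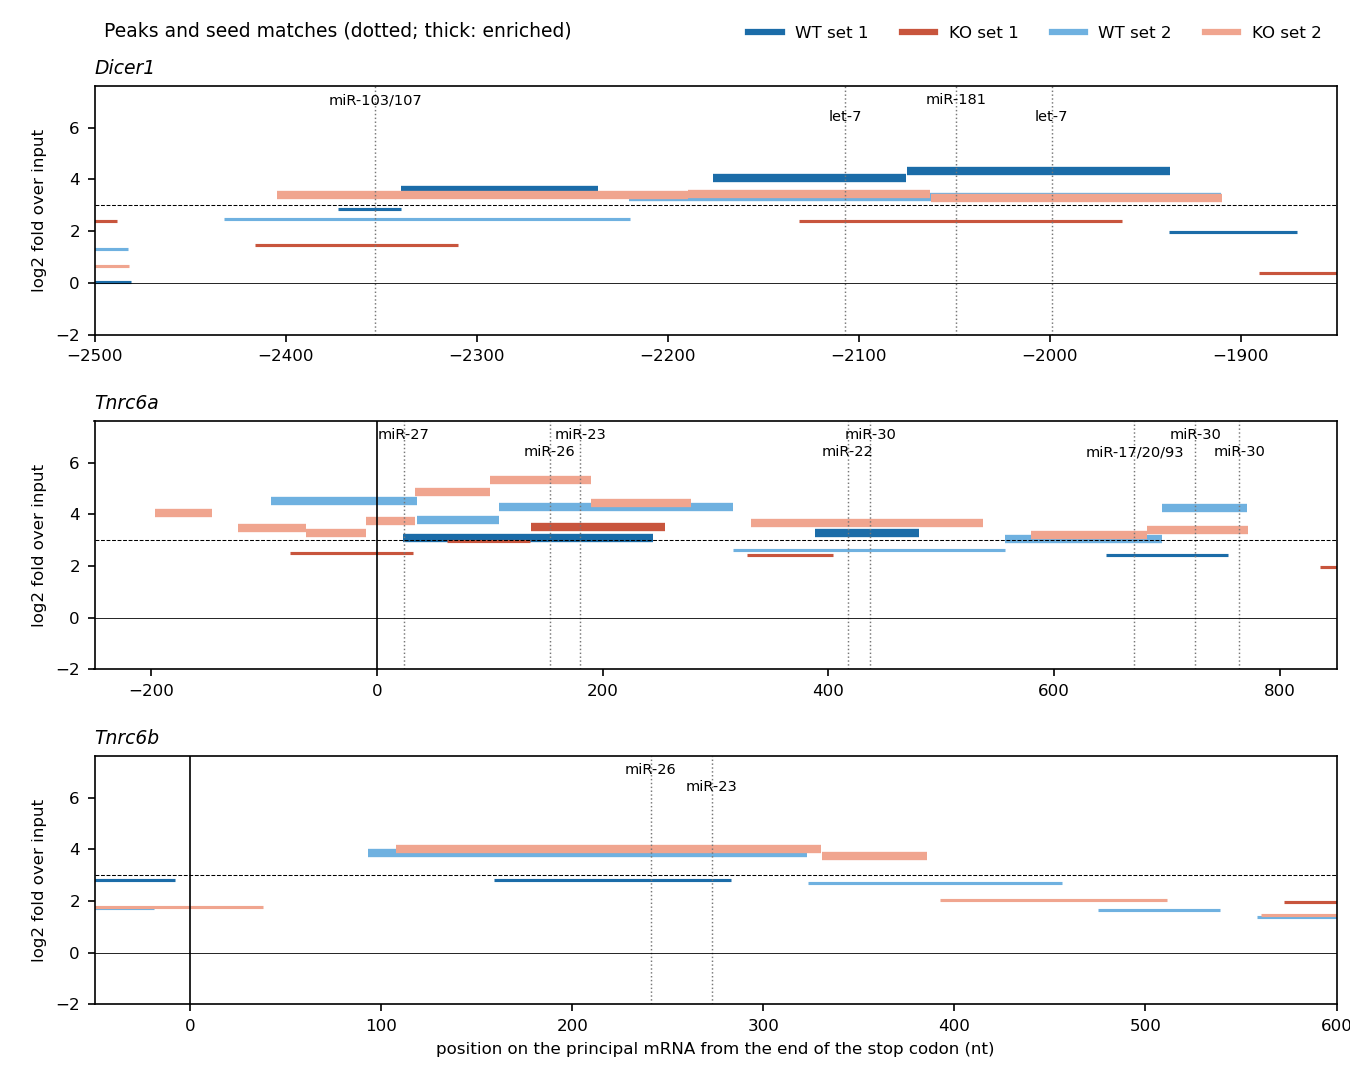
Peaks of the 4 libraries at the Dicer1 coding site and after the stop codons of Tnrc6a and Tnrc6b, with the log2 fold over input on the vertical axis and the distance from the end of the stop codon in nucleotides on the horizontal axis. Thick lines are enriched peaks and dotted lines are seed matches of the named families. Peaks of WT set 1, WT set 2 and KO set 2 cover both let-7 matches at folds above 3, and the peak of KO set 1 is at 2.38.

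In the 3′ UTR of Dicer1, the site at chr12:104690328-104690594 had folds of 4.16 in WT set 1, 2.64 in WT set 2, 3.62 in KO set 2 and 2.00 in KO set 1. It was enriched in WT set 1 and KO set 2. It held a miR-29 match followed by A, and overlapping matches to miR-27, miR-128, miR-130 and miR-19. A site near the 3′ end, at chr12:104687981-104688245, was enriched in WT set 2 alone, at 3.72, with 1.97 in KO set 2, 2.68 in WT set 1 and 1.38 in KO set 1. None of the 23 words was found there. Of the 27 seed matches in the coding region and 3′ UTR of the Dicer1 mRNA, 23 were within 25 nucleotides of a listed peak of some library and 10 of an enriched one. These shares were not counted over all genes.

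Of the listed peaks of the Argonaute genes, 0 of 62 in WT set 1 and 0 of 60 in KO set 1 were enriched. In set 2 it was 2 of 126 in WT and 2 of 117 in KO, or 1.59% and 1.71%. Over all peaks the shares were 3.57%, 0.848%, 1.42% and 1.23%, so in set 2 the Argonaute shares lay near the background. Ago2, the slicing Argonaute and the protein that was immunoprecipitated, had 33, 31, 58 and 52 listed peaks in WT set 1, KO set 1, WT set 2 and KO set 2. Per length, its coding sequence held 3.48, 4.26, 8.52 and 9.29 peaks per kb and its 3′ UTR 1.81, 1.36, 2.08 and 1.45. The coding sequence of Tnrc6b, by the same measure, held 3.75, 5.71, 6.78 and 7.49 per kb, so the densities of the 2 genes overlapped. Their median folds lay apart: the median log2 fold of coding peaks was −0.13, 0.02, −0.29 and −0.16 in Ago2, against 1.46, 1.19, 1.44 and 1.72 in Tnrc6b. The highest fold of any Ago2 peak was 2.57 in WT set 1, 1.61 in KO set 1, 2.47 in WT set 2 and 2.94 in KO set 2, and the last 2 of these peaks were intronic.

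Ago1 had 2 enriched sites, both in its 3′ UTR and both in set 2. The first, at chr4:126439113-126439499, began right after the stop codon and had highest folds of 3.38 in WT set 2 and 3.37 in KO set 2, against −0.13 in WT set 1 and 0.02 in KO set 1. It held a miR-133 match followed by A. The second, at chr4:126435194-126435261 near the 3′ end, was enriched in KO set 2, at 3.70, with 2.15 in WT set 2, 2.33 in WT set 1 and 2.26 in KO set 1. Ago3 had 19, 15, 34 and 30 listed peaks with highest folds of 1.20, 1.38, 2.80 and 2.24. Of these peaks 13, 8, 18 and 15 lay in its long 3′ UTR. Ago4 had 2, 2, 13 and 13 listed peaks, with highest folds of 1.20, 0.38, 1.80 and 2.41. Of 120 seed matches in coding sequence and 3′ UTR of the 4 Argonaute mRNAs, 2 were within 25 nucleotides of an enriched peak, both in Ago1. In the 3 TNRC6 mRNAs it was 34 of 99. Such counts depend on where the enriched peaks lie, and the share over the matches of all genes was not counted.

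Drosha and Dgcr8, the Microprocessor subunits, had no enriched peak. Drosha had 10, 6, 41 and 38 listed peaks in WT set 1, KO set 1, WT set 2 and KO set 2, with highest folds of 0.87, 1.38, 2.80 and 1.24. Its short 3′ UTR held 1, 0, 1 and 0 peaks. Dgcr8 had 4, 10, 18 and 16 listed peaks, with highest folds of 0.46, 1.12, 2.47 and 2.56. In set 2, where more peaks were listed, none of 59 peaks of the 2 genes in WT and 54 in KO was enriched. Over all peaks of set 2 the shares were 1.42% in WT and 1.23% in KO. The Wilson intervals for the 2 genes reached up to 6.11% in WT and 6.64% in KO. These counts are thus too small to tell the 2 genes from the background.

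Among the peaks of Dgcr8 were some on a microRNA that is encoded in its coding exon, Mir1306. They lay on its 5p arm, which is why that sequence is shown, with the seed in capitals.
mmu-miR-1306-5p: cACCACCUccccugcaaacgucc
RefSeq places this mature RNA at chr16:18284288-18284310 on the minus strand. The peak of KO set 1 was at chr16:18284288-18284310, the same bases, with a log2 fold of −0.20. That of KO set 2 was at chr16:18284290-18284312 with a fold of 1.82, and that of WT set 2 at chr16:18284285-18284318 with 1.64. WT set 1 had no listed peak there. None was enriched, and the −log10 p values were 0, 0.567 and 0.661. The host exon and the microRNA share these bases, so reads of the 2 cannot be told apart. Mir5113 within Tnrc6b and Gm24572 within Dgcr8 had no listed peak, and Gm47288 within Drosha had a peak in WT set 2 at 0.47 and in KO set 2 at 0.24.

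The direct lists compare the reads of the WT and KO immunoprecipitated libraries of a set at the peaks of one of them, without the inputs. By the same thresholds none of the 232 and 437 WT peaks of the 10 genes was higher in WT, in set 1 where 0.469% of all peaks were and in set 2 where 0.0192% were. Of the KO peaks, 2 of 311 were higher in KO in set 1, where 0.179% of all peaks were, and 0 of 453 in set 2, where 0.0144% were. Both were in the distal 3′ UTR of Tnrc6b, at chr15:80939082-80939095 with a direct log2 fold of 3.75 and a −log10 p of 3.17, and at chr15:80939308-80939356 with 3.93 and 3.70. Over input, these KO peaks of set 1 had folds of 2.71 and 1.30 and were not enriched. No listed peak of WT set 1, WT set 2 or KO set 2 covered them. They rest on 1 library.

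With the limit on the direct log2 fold lowered to 1 and that on −log10 p kept at 3, WT set 1 had 10 such peaks: 6 in Tnrc6c, 3 in Tnrc6b and 1 in Tnrc6a, or 10 of 232 where 4.85% of all peaks passed. KO set 1 had 4 of 311, all in Tnrc6b, where 0.755% passed. In set 2 there were 0 of 437 and 0 of 453, where 0.403% and 0.144% passed. The Tnrc6c coding peak at chr11:117759619-117759744 had a direct fold of 2.38 with a −log10 p of 12.8, and that at chr11:117755325-117755440 had 2.03 with 9.01. In set 2 the direct folds at these 2 sites were −0.06 and −0.30. The 3 Dicer1 coding peaks enriched in WT set 1 at the let-7 site had direct folds of 0.49, 0.87 and 0.95, and the 3′ UTR peak with the miR-29 match had −0.17. At the strongest Tnrc6b coding site the direct folds of the WT peaks ran from 0.21 to 0.71 in set 1 and from −0.32 to 0.05 in set 2.

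The median direct fold of WT over KO was 0.33 over the 232 peaks of set 1, beside 0.74 over all peaks, and 0.12 over the 437 peaks of set 2, beside 0.30. Taken at KO peaks, the median KO over WT was 0.58 beside 0.72 in set 1 and 0.10 beside 0.27 in set 2. Each list is drawn up at the peaks called in the library in its numerator. At the peaks enriched over input, the median direct fold was 0.98 for the 22 of WT set 1, −0.44 for the 3 of KO set 1, 0.01 for the 30 of WT set 2 and 0.01 for the 39 of KO set 2. All 30 and all 39 of set 2 were within 1 of zero on the log2 scale.

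The 2 ways of comparing genotypes gave different sizes in set 1. For 21 enriched WT peaks of set 1 that a KO peak overlapped, the median fold over input was 3.87 in WT and 1.89 in KO, and the median difference was 1.95, while the median direct fold was 0.95. At the Dicer1 3′ UTR site the folds over input were 4.16 and 2.00 and the direct fold −0.17. For 30 enriched WT peaks of set 2 the medians over input were 3.52 and 3.23, the median difference 0.59 and the median direct fold 0.01. These 21 and 30 peaks were picked by a high WT fold over input, a choice that favours WT in the difference. Over all 124 overlapping pairs of set 1 the median difference was 0.45 and the median direct fold 0.05. Over all 304 pairs of set 2 they were −0.02 and −0.07. The direct comparison does not use the inputs, and the part of the inputs in the different sizes was not tested.

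**Figure D5:**
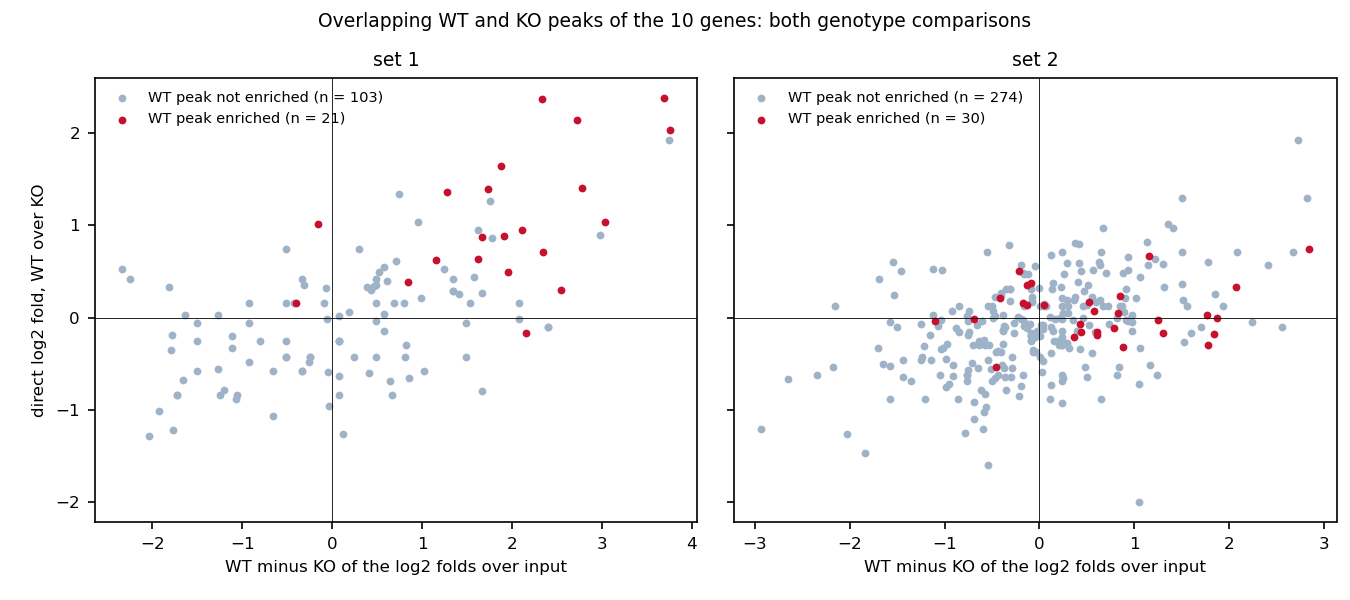
Overlapping WT and KO peaks of the 10 genes in set 1 (left) and set 2 (right). The horizontal axis is the WT fold over input minus the KO fold over input and the vertical axis the direct fold of WT over KO, both log2, with peaks enriched in WT in red. The red points of set 1 have a median of 1.95 across and 0.95 up, and those of set 2 have 0.59 and 0.01. Red points were picked by a high WT fold over input, which favours WT on the horizontal axis. All points together have medians of 0.45 and 0.05 in set 1 and of −0.02 and −0.07 in set 2.

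Recurrence of listed peaks between sets was counted by region, in both directions. Of 104 coding peaks of WT set 1, 91.3% (95% Wilson interval 84.4 to 95.4) overlapped a WT peak of set 2, beside 82.1% over all coding peaks. Of 84 3′ UTR peaks it was 67.9% (57.3 to 76.9) beside 70.5%, and of 36 intronic peaks 38.9% (24.8 to 55.1) beside 37.5%. In KO the shares were 89.8% (83.1 to 94.1) beside 82.8% for 118 coding peaks, 48.3% (38.1 to 58.6) beside 61.2% for 87 3′ UTR peaks and 18.1% (11.6 to 27.1) beside 23.5% for 94 intronic peaks. From set 2 to set 1 the WT shares were 55.9% (49.2 to 62.5) for 211 coding peaks and 59.8% (50.1 to 68.8) for 102 3′ UTR peaks, beside 46.6% and 43.4% over all genes. In KO they were 59.5% (53.0 to 65.6) for 227 coding and 43.6% (34.0 to 53.7) for 94 3′ UTR peaks, beside 41.4% and 47.1%. Coding shares were thus above 3′ UTR shares from set 1 to set 2 in both genotypes and from set 2 to set 1 in KO, and not from set 2 to set 1 in WT. The intervals cover counting error only.

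The 3′ UTR took 29.8% ± 9.1 (SD, n = 2) of the listed WT peaks of the 10 genes and 24.4% ± 5.11 (SD, n = 2) of the KO peaks. Over all genes the 3′ UTR took 19.2% and 12.1% in the WT libraries of sets 1 and 2 and 18.2% and 11.4% in the KO libraries. A seed match to any of the 23 families was present in 45.4% ± 3.17 (SD, n = 2) of the 3′ UTR peaks of the 10 genes in WT and in 37.9% ± 9.65 (SD, n = 2) in KO. The shares over the 3′ UTR peaks of all genes were 41.6% and 40.2% in WT and 33.3% and 40.3% in KO, so the shares of the 10 genes lay near the background. miR-486 was not searched here.

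Among 45 other genes of the pathway, from hairpin export to decapping, 20 had an enriched peak in at least 1 library. Their listed peaks were enriched in 15 of 487 cases in WT set 1, 4 of 585 in KO set 1, 15 of 1132 in WT set 2 and 20 of 1209 in KO set 2, or 3.08%, 0.684%, 1.33% and 1.65%, near the backgrounds of 3.57%, 0.848%, 1.42% and 1.23%. The 8 with the most enriched peaks were Pabpc1, Ddx5, Dcp1a, Cnot1, Elavl1, Dcp2, Edc4 and Cnot6l. Pabpc1, the cytoplasmic poly(A)-binding protein, had 2, 0, 5 and 3, all but 1 of them coding. Ddx5, a helicase that works with the Microprocessor, had 2, 3, 2 and 0, all in its 3′ UTR, with a highest fold of 5.36 in WT set 1. Cnot1, the scaffold of the deadenylase complex that TNRC6 recruits, had 2, 0, 0 and 2. Edc4, of the decapping complex, had 4 in KO set 2 alone, with a fold of up to 5.88. The decapping factors Dcp1a and Dcp2 had 1, 1, 1 and 2 and 1, 0, 2 and 1. Elavl1, an RNA-binding protein of AU-rich 3′ UTRs, had 1, 0, 1 and 2, and Cnot6l, a deadenylase subunit, 0, 0, 1 and 2. In the direct lists 1 peak of the 45 genes passed, in Dis3l2, higher in WT of set 1.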

How the data were processed

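Libraries were trimmed with cutadapt, with molecular identifiers handled by UMI-tools, and aligned with STAR to mm10 (GRCm38), per the labels and methods. Peaks were called by the authors with CLIPper in each immunoprecipitated library, without pooling. The deposited lists hold a −log10 p and a log2 fold of reads, over input or over the other genotype. They give no read counts, so the depth of each library is unknown. Folds that recur with opposite sign in the direct lists put KO over WT depth near 1.12 in set 1 and 1.09 in set 2. A −log10 p of 0 was written for every peak with a negative fold, and 96.2% to 97.5% of peaks share their exact fold with another peak of their list. Input and miR-486-enriched libraries were not analysed here on their own. The alternatives tried were other limits on fold and p, merged peaks, other region rules, overlaps and seed definitions, and leaving out each set.

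Here peaks were assigned on the same strand to GENCODE M21 genes, with the region taken at the peak midpoint, coding before untranslated before intron (Python 3.11.15, pandas 2.3.3, pysam 0.24.0). Positions on mRNAs use the principal transcript, and seed words were read from GRCm38.p6. Named were all 10 genes, the strongest and recurring enriched sites, direct peaks past threshold, and the 8 other pathway genes with most enriched peaks. Genes and lists were chosen with earlier results of these data known. Scripts were tested on simulated peaks.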

Additional observations from a re-analysis of the deposited data

How the results depend on the processing

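Of the alternatives run, 44 left a result on its side, 24 moved it and 1 turned its direction. The log2 ratio of enriched peaks in WT over KO was 1.25 as a mean over sets, and it ran from −0.38 without replicate 1 to 2.87 without replicate 2, so its direction rests on set 1, in which 22 WT and 3 KO peaks were enriched. No value could be had at a log2 threshold of 4, where KO set 1 had 0 peaks. Enriched WT peaks (26.0) were 22 and 30 without either replicate, 59 at a log2 threshold of 1, 9.5 at a threshold of 4 and 6.0 without the TNRC6 genes, an alternative chosen after seeing the data. Enriched KO peaks (21.0) were 3 and 39 without either replicate, 52.5 and 4.5 at those thresholds, 11 with adjoining peaks merged and 5.5 without the TNRC6 genes. Peaks higher in WT in the direct lists (0) became 10 at a log2 threshold of 1. Those higher in KO (2) became 4 at that threshold and 0 without replicate 1, with 5 as the limit on −log10 p, or with 4 as the limit on the log2 fold. The 3′ UTR share of KO peaks was 67.9% among enriched peaks, the mean of 3 of 3 in KO set 1 and 14 of 39 in KO set 2, so it rests on the 3 peaks of KO set 1. Without either replicate the 3′ UTR share of listed peaks ran from 23.3% to 36.2% in WT and from 20.8% to 28.0% in KO, and the seed share from 43.1% to 47.6% and from 31.0% to 44.7%. Recurrence of 3′ UTR peaks fell to 35.7% in WT and 21.8% in KO at an overlap of 50% of both peaks, and to 52.3% in WT at a fold of at least 1 over input. The share of 3′ UTR peaks with a seed match was 33.5% in WT with no extension, 49.0% in WT and 50.1% in KO with 50 nucleotides, 25.2% and 19.3% with 8-base matches, and 53.5% in WT at a fold of at least 1. The cause of these shifts, other than fewer or more peaks entering, was not tested. No paired analysis was possible because these results come from no test over samples. WT and KO libraries share a set by their titles, and their values are compared within each set. The read depth of each library is unknown, so folds of short peaks with few reads carry no interval.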
